A study of Saccharomyces cerevisiae with 6 samples.

Results

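The genes described here encode the steps by which Saccharomyces cerevisiae makes sugar and cell material from ethanol, acetate and lactate. They are FBP1 and PCK1 of gluconeogenesis, ICL1, MLS1, MDH2 and CIT2 of the glyoxylate cycle, the carboxylate transporters SFC1 and JEN1, and the activators CAT8 and ADR1. They were chosen by name, through the platform annotation of the array, and all 10 were measured, out of 5449 genes tested. Expression was measured as RNA abundance on 6 Affymetrix Yeast Genome 2.0 arrays. The evolved strains 62A (1 array), 62B (2 arrays) and 62C (1 array) are galactose-adapted descendants in the CEN.PK113-7D background, and the unevolved CEN.PK113-7D (2 arrays) was the reference. All cultures grew aerobically in batch on minimal medium with glucose, in fermenters held at pH 5.0, and were sampled in mid exponential phase. The labels name no mutated allele for any evolved strain, and do not say whether paired arrays came from separate cultures. The p-values then measure only the spread between these arrays, which may be technical.

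During growth on glucose, yeast ferments the sugar and does not need gluconeogenesis. Glucose keeps the Snf1 kinase inactive and the Mig1 repressor in the nucleus, and the genes described here are among the textbook targets of this glucose repression. When glucose runs out, Snf1 activates the transcription factors Cat8 and Adr1, and the glyoxylate cycle then turns acetyl-CoA into malate and oxaloacetate, from which Pck1 and Fbp1 lead back to hexose phosphates. CIT2 is the exception in the list, since it responds to the retrograde signal that passes from mitochondria to the nucleus through Rtg1 and Rtg3.

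Values are log2 expression values, and a log2 change is an evolved strain minus the reference. The background level was 5.07, the 95th percentile of 1746 probe sets made for another yeast species, and each array had between 96.8% and 97.3% of the tested genes above it. Paired arrays lay close together, with an SD of the log2 difference over genes of 0.0695 for 62B and 0.0956 for the reference. RNA integrity, read as the log2 gap between 3' and 5' probe sets of 8 control genes, was 1.89 on the 62A array, 2.01 and 2.05 on the 62B arrays, 1.73 on the 62C array, and 1.90 and 1.84 on the reference arrays. In that measure 62B lay highest and 62C lowest. By another pair of ACT1 probe sets, the gap was 1.49 in 62A, 1.58 and 1.73 in 62B, and 1.41 in 62C. It was 1.40 and 1.27 in the reference, so there 62B again lay highest but the reference lowest. The part of RNA integrity in the changes below was not tested. A lower value in bulk RNA cannot tell fewer expressing cells from less RNA per cell.

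On glucose the pathway stayed near background in the evolved strains and in the reference. All 10 genes were above the background level on all 6 arrays, but 7 of them had a mean under 1 log2 unit above it. ICL1 and MDH2 lay between 1 and 2 units above background, and CIT2 was the single gene further up. Among 30 changes (10 genes in 3 strains) 6 passed the test, and 0 reached 2-fold. These 6 were falls of PCK1 and JEN1 and rises of MLS1 and MDH2 in 62B, and a fall of CIT2 and a rise of CAT8 in 62C. RMA values near background understate the change of the RNA itself.

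**Figure D1:**
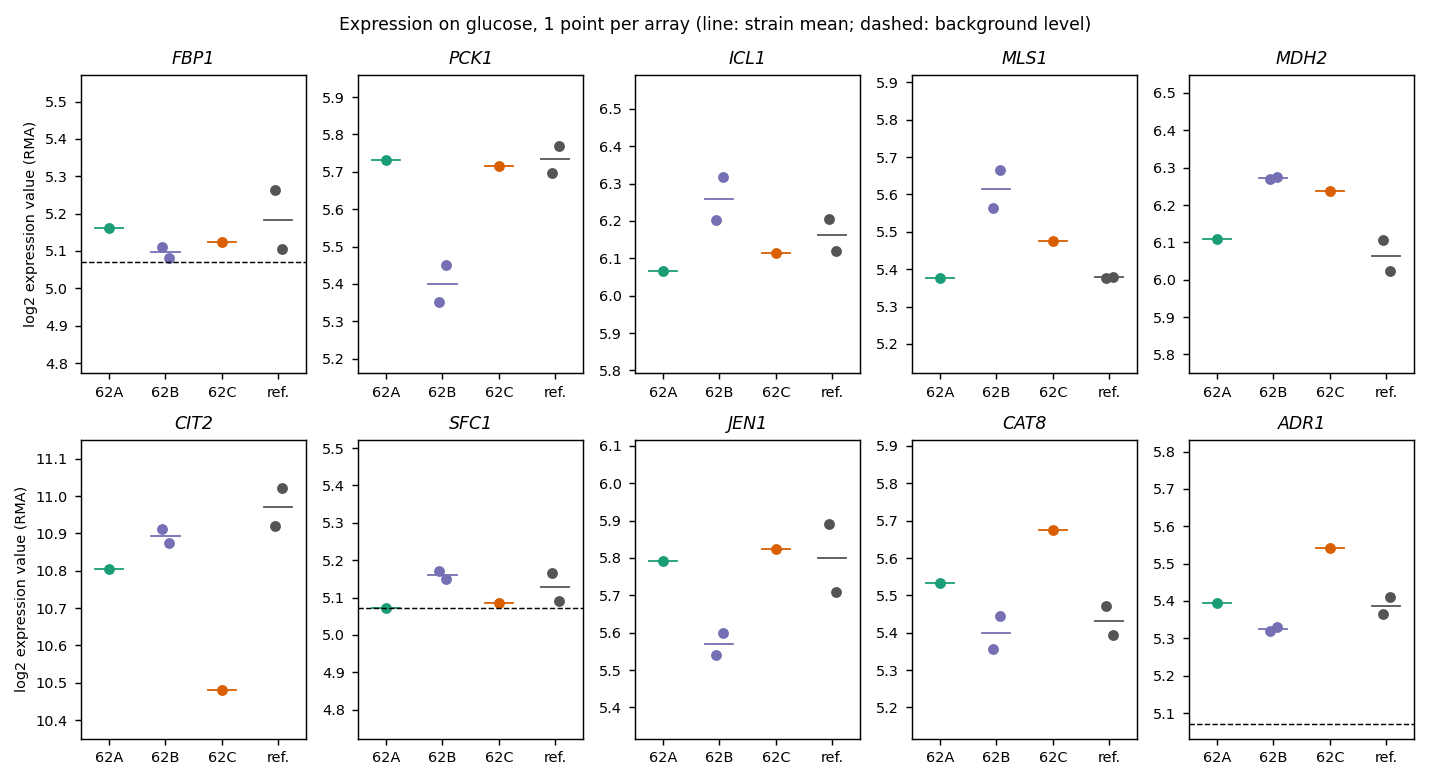
Log2 expression values (y axis, a window of 0.8 units in each panel) of the 10 genes on each array, by strain (x axis, ref. for the reference). Points are arrays, lines are strain means and the dashed line is the background level of 5.07 where it falls in the window. PCK1 and JEN1 are lowest on both 62B arrays, MLS1 is highest on both 62B arrays, and CIT2 is lowest and CAT8 highest on the 62C array.

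Among the gluconeogenic enzymes, PCK1 (YKR097W), phosphoenolpyruvate carboxykinase, was lower in 62B. Its log2 value was 5.73 in 62A, 5.35 and 5.45 in 62B, 5.72 in 62C, and 5.70 and 5.77 in the reference. Both 62B arrays lay below all other arrays, while 62A and 62C lay within the reference pair. PCK1 in 62B was at 0.794 of the reference level (log2 change −0.33 ± 0.05, SE of the fit, 2 arrays against 2, limma adjusted p = 0.00122). Its log2 changes were −0.0024 in 62A (95% interval −0.15 to 0.15) and −0.018 in 62C (−0.17 to 0.13), and neither passed.

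FBP1 (YLR377C), fructose bisphosphatase, the final enzyme specific to the route, was hardly above background. Its log2 value was 5.16 in 62A, 5.11 and 5.08 in 62B, 5.12 in 62C, and 5.26 and 5.11 in the reference. The reference arrays differed from each other by more than any strain mean did from theirs. The log2 changes of FBP1 were −0.022 in 62A, −0.087 in 62B and −0.059 in 62C, and their 95% intervals together ran from −0.22 to 0.14. Without reference replicate 2 the 62B change of FBP1 was −0.17 and passed (limma adjusted p = 0.0228, range 0.0228 to 0.909 over 11 alternatives), and without reference replicate 1 it was −0.0084.

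The glyoxylate cycle enzymes went in different directions by gene. MLS1 (YNL117W), malate synthase, had log2 values of 5.38 in 62A, 5.56 and 5.66 in 62B, 5.48 in 62C, and 5.38 and 5.38 in the reference. Both 62B arrays stood above all others, the 62C array above the reference, and the 62A array at the reference level. In 62B MLS1 was 1.18-fold higher (log2 change 0.23 ± 0.05, limma adjusted p = 0.00596), and in 62C its log2 change was 0.096 ± 0.064 (limma adjusted p = 0.263). Without the second 62B array the 62B change was 0.18 and no longer passed (limma adjusted p = 0.0988, range 0.000762 to 0.0988 over 11 alternatives).

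MDH2 (YOL126C), the cytosolic malate dehydrogenase, had log2 values of 6.11 in 62A, 6.27 and 6.28 in 62B, 6.24 in 62C, and 6.11 and 6.02 in the reference. The 62B and 62C arrays lay clearly above the reference pair, and the 62A array level with its upper member. MDH2 rose 1.15-fold in 62B (log2 change 0.21 ± 0.05, limma adjusted p = 0.00911). In 62C its log2 change was 0.17 ± 0.06 (limma adjusted p = 0.0512), and it passed under 5 of 11 alternatives there. MDH2 in 62B passed under 9 of 11 alternatives. With either 62B array left out it did not pass, although the log2 change was 0.21 and 0.20. The spread in those fits came from the reference pair alone.

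ICL1 (YER065C), isocitrate lyase, which commits carbon to the cycle, did not pass in any strain. Its log2 value was 6.07 in 62A, 6.20 and 6.32 in 62B, 6.11 in 62C, and 6.20 and 6.12 in the reference. One 62B array lay above the reference pair and the other within it, so these groups overlapped, and the 62A and 62C arrays lay just below the pair. The log2 changes of ICL1 were −0.096 in 62A (95% interval −0.25 to 0.062), 0.097 in 62B (−0.031 to 0.23) and −0.048 in 62C (−0.21 to 0.11).

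CIT2 (YCR005C), the peroxisomal citrate synthase, stood furthest above background and showed the largest change of the 30. Arrays gave log2 values of 10.80 in 62A, 10.91 and 10.87 in 62B, 10.48 in 62C, and 10.92 and 11.02 in the reference. Each evolved array was under the reference pair, and the 62C array was clearly the lowest. CIT2 in 62C was at 0.712 of the reference level (log2 change −0.49 ± 0.06, 1 array against 2, limma adjusted p = 0.000379). It had log2 changes of −0.17 ± 0.06 in 62A (limma adjusted p = 0.0893) and −0.079 ± 0.052 in 62B (limma adjusted p = 0.260). Without reference replicate 1 the 62A change passed as well (−0.22, limma adjusted p = 0.0160, range 0.0160 to 0.181 over 11 alternatives).

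Of the transporters, JEN1 (YKL217W), the permease that imports lactate and pyruvate at the plasma membrane, was lower in 62B. The arrays showed log2 values of 5.79 in 62A, 5.54 and 5.60 in 62B, 5.82 in 62C, and 5.89 and 5.71 in the reference. The 62B arrays lay below the rest, as they did for PCK1, and the 62A and 62C arrays lay between the reference arrays. JEN1 in 62B was at 0.852 of the reference level (log2 change −0.23 ± 0.06, limma adjusted p = 0.0175). JEN1 in 62B passed under 9 of 11 alternatives. The call was lost without either 62B array, where the log2 change was −0.20 and −0.26 and the spread came from the reference pair alone. Without reference replicate 1 the change was −0.14.

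SFC1 (YJR095W), the mitochondrial carrier that exchanges succinate for fumarate, was at the background level. It had log2 values of 5.07 in 62A, 5.17 and 5.15 in 62B, 5.09 in 62C, and 5.17 and 5.09 in the reference. The span over all 6 arrays was 0.0977, and the groups overlapped except that the 2 single arrays lay just under the reference pair. The log2 changes of SFC1 lay between −0.055 in 62A and 0.032 in 62B, with 95% intervals from −0.19 to 0.14 over the 3 strains.

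CAT8 (YMR280C), the zinc cluster activator of the gluconeogenic genes, was higher in 62C. It stood at a log2 value of 5.53 in 62A, 5.36 and 5.44 in 62B, 5.68 in 62C, and 5.47 and 5.39 in the reference. The 62C array was highest and 62A next, while the 62B arrays overlapped the reference pair. CAT8 rose 1.18-fold in 62C (log2 change 0.24 ± 0.07, 1 array against 2, limma adjusted p = 0.0166), and its log2 change was 0.10 ± 0.07 in 62A (limma adjusted p = 0.291).

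ADR1 (YDR216W), the zinc finger activator of ADH2 and of peroxisomal genes, was highest on the same array. Arrays gave log2 values of 5.40 in 62A, 5.32 and 5.33 in 62B, 5.54 in 62C, and 5.36 and 5.41 in the reference. The 62B arrays lay just below the reference pair and the 62A array within it. In 62C the log2 change of ADR1 was 0.15 ± 0.06 and did not pass (limma adjusted p = 0.0627), though it passed under 3 of 11 alternatives (range 0.0219 to 0.146).

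Read against all genes, these counts were near or under the background. For 62A, limma called 0 of the 10 genes higher and 0 lower, against 10.02% of all tested genes called higher and 14.9% lower, and CIT2 alone had an unadjusted p under 0.05. For 62B, 2 of 10 were higher and 2 lower, against 20.1% and 21.3% of all tested genes. For 62C, 1 of 10 was higher and 1 lower, against 14.7% and 23.3% of all tested genes. The median log2 change of the 10 genes was −0.0057 in 62A, −0.047 in 62B and 0.0022 in 62C, beside −0.036, −0.010 and −0.044 over all tested genes. The 3 comparisons share the reference arrays. Set against the reference as a class of 3 strains, limma called 0 of the 10 genes higher and 0 lower, against 1.96% and 2.79% of all tested genes, and 0 of the 10 had an unadjusted p under 0.05. The class changes ranged from −0.24 ± 0.13 for CIT2 (limma adjusted p = 0.277) to 0.14 ± 0.07 for MDH2 (limma adjusted p = 0.240).

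The same contrasts over the probe sets of the other species show how far values at background moved. Of these 1746 probe sets, 95% changed by less than 0.058 in 62A, 0.052 in 62B and 0.064 in 62C on the log2 scale. The largest such changes were 0.12, 0.10 and 0.12. These values describe probe sets at background only, and CIT2, MDH2 and ICL1 lay further above it.

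**Figure D2:**
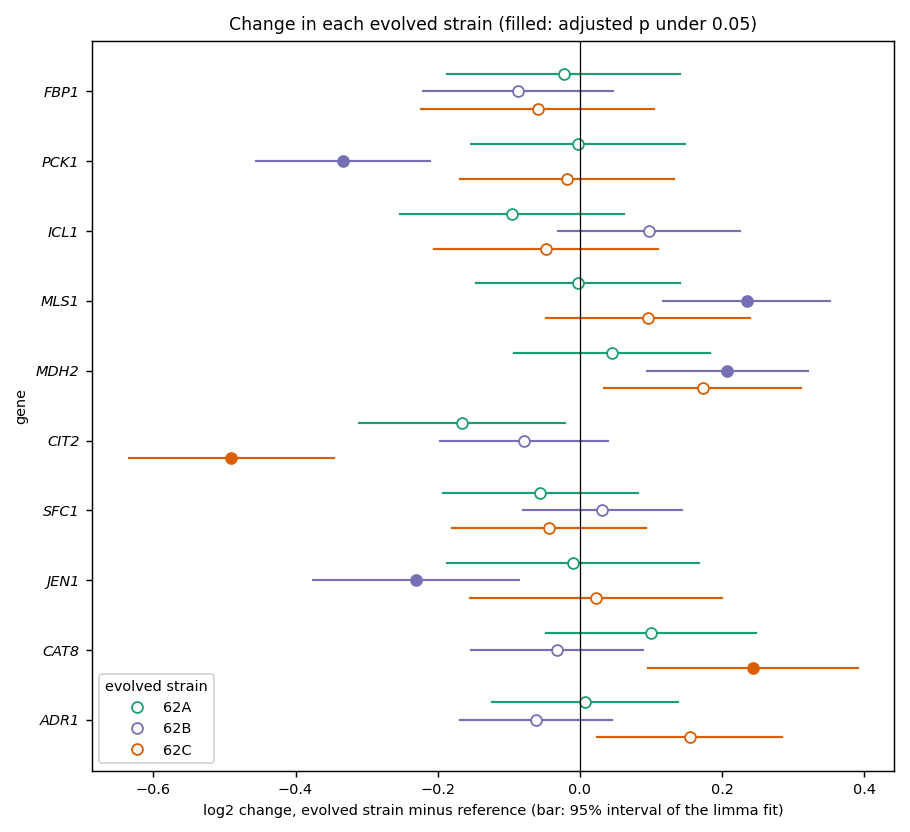
Log2 change of each gene (rows) in each evolved strain minus the reference (x axis), with bars for the 95% interval of the limma fit and filled points where the adjusted p was under 0.05. The 6 filled points are PCK1, MLS1, MDH2 and JEN1 in 62B and CIT2 and CAT8 in 62C, and all other points are open.

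The evolved strains differed from one another in 4 of the 10 genes (limma F adjusted p under 0.05), where 28.8% of all tested genes did. These were PCK1 (limma F adjusted p = 0.00574), CIT2 (0.00374), CAT8 (0.0280) and MLS1 (0.0440). JEN1 (0.0513) and ADR1 (0.0505) lay just outside the threshold and both passed after median centring, with a mean-variance trend and with robust variance, JEN1 also after the filter on low values, and FBP1, SFC1, ICL1 and MDH2 had adjusted p between 0.108 and 0.796. Leaving out 1 array of a pair changed the count. The spread then came from the other pair alone, so the count can change without a change in the strain values. CIT2 alone differed without 62B replicate 1, PCK1 and CIT2 did without 62B replicate 2, and 7 genes did without either reference array. Over all 10 genes, the pairwise contrasts separated 62A from 62B for 2 (16.1% of all tested genes), 62B from 62C for 5 (33.6%) and 62A from 62C for 0 (2.42%), with CAT8, PCK1, CIT2, JEN1 and ADR1 making up the 5. JEN1 was lower in 62B than in 62C (log2 difference −0.25 ± 0.08, limma adjusted p = 0.0347), as was ADR1 (−0.22 ± 0.06, limma adjusted p = 0.0190), though neither passed the F.

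PCK1 was higher in 62A than in 62B (log2 difference 0.33 ± 0.07, limma adjusted p = 0.00941) and lower in 62B than in 62C (−0.32 ± 0.07, limma adjusted p = 0.00598). Its levels in 62A and 62C did not differ beyond their error (0.016, 95% interval −0.16 to 0.19). For MLS1 the order was 62B, 62C, 62A from high to low. MLS1 was lower in 62A than in 62B (−0.24 ± 0.06, limma adjusted p = 0.0345), and neither end was separated from 62C in the middle (62A minus 62C −0.098 and 62B minus 62C 0.14, limma adjusted p = 0.625 and 0.124).

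CIT2 ran from 62B through 62A to 62C, high to low. It was higher in 62B than in 62C (log2 difference 0.41 ± 0.06, limma adjusted p = 0.00131), and the difference of 62A from 62C was 0.32 ± 0.07 (limma adjusted p = 0.0594). CAT8 ran the opposite way, from 62C through 62A to 62B. It was lower in 62B than in 62C (−0.28 ± 0.07, limma adjusted p = 0.0107), with 62A not separated from either (62A minus 62B 0.13, 62A minus 62C −0.14, limma adjusted p = 0.215 and 0.435). None of the 10 genes spanned 0.5 log2 units between strain means, the least span for which genes of like profile were to be named, and the widest span was 0.49 for CIT2.

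Several genes around these steps changed by over 2-fold. The first list held 28 measured pathway partners. Most were enzymes shared with glycolysis, the feeder reactions of oxaloacetate and malate, and mitochondrial or peroxisomal counterparts. PYK2, PFK26, PFK27 and FBP26 were in it too. Of these 28 partners, those higher numbered 5 in 62A, 5 in 62B and 8 in 62C, and those lower 7, 13 and 6. The median log2 changes were −0.053, −0.12 and −0.0058. Of all tested genes, 10.02% were called higher in 62A, 20.1% in 62B and 14.7% in 62C. Those called lower made up 14.9%, 21.3% and 23.3%. The counts of this list and of the lists below are to be read beside these shares. AGX1, which makes glycine from glyoxylate, rose in every evolved strain, with log2 changes of 0.81 ± 0.07 in 62A, 0.84 ± 0.06 in 62B and 1.22 ± 0.07 in 62C (limma adjusted p at most 4.92e-05). The arrays showed log2 values of 7.37 in 62A, 7.34 and 7.46 in 62B, 7.78 in 62C, and 6.59 and 6.53 in the reference, and the groups did not overlap. Set against the reference as a class of evolved strains, AGX1 passed as well (limma adjusted p = 0.0380).

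MAE1, the mitochondrial malic enzyme that turns malate into pyruvate, fell in every evolved strain. It stood at a log2 value of 8.91 in 62A, 9.13 and 9.07 in 62B, 8.50 in 62C, and 9.62 and 9.78 in the reference. The log2 changes of MAE1 were −0.79 ± 0.07 in 62A, −0.60 ± 0.06 in 62B and −1.20 ± 0.07 in 62C (limma adjusted p at most 9.08e-05). For the class of evolved strains MAE1 did not pass (limma adjusted p = 0.0579). TDH1, a glyceraldehyde phosphate dehydrogenase used in both directions of the sugar pathway, differed in direction. Its log2 value was 11.29 in 62A, 9.67 and 9.71 in 62B, 11.71 in 62C, and a wide 10.48 and 10.07 in the reference. It rose in 62A (log2 change 1.01 ± 0.13) and 62C (1.44 ± 0.13) and fell in 62B (−0.59 ± 0.11), with limma adjusted p of 0.000741, 4.04e-05 and 0.00221.

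Some counterparts, named here after their values were seen, carry out the same or neighbouring reactions elsewhere in the cell. MDH1, the mitochondrial malate dehydrogenase, rose in 62A, 62B and 62C (log2 changes 0.47, 0.27 and 0.90), and so did the peroxisomal MDH3 (0.23, 0.22 and 0.32). CIT1, the mitochondrial citrate synthase and paralog of CIT2, rose in 62C (0.41, limma adjusted p = 0.000519), where CIT2 fell. PYC2, a pyruvate carboxylase that supplies oxaloacetate, fell in all 3 strains (−0.37, −0.27 and −0.40). For the class of 3 strains PYC2 passed (limma adjusted p = 0.0424), while MDH1 and MDH3 did not (limma adjusted p = 0.127 and 0.0579). IDP2, the cytosolic isocitrate dehydrogenase, rose in 62B alone of the single-strain tests (0.26, limma adjusted p = 0.0106). That its change there differs from those in 62A and 62C was not tested.

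The second list held 28 genes, mostly of ethanol, acetate, glycerol and fatty acid use, many of them known targets of Cat8, Sip4 or Adr1. It also held genes of other functions, such as PUT4, ARO9, NQM1, REG2 and SIP4. Those higher numbered 6 in 62A, 8 in 62B and 8 in 62C, and those lower 2, 4 and 3, with median log2 changes of 0.053, 0.046 and 0.11. ALD4, the mitochondrial acetaldehyde dehydrogenase, had log2 values of 9.59 in 62A, 9.29 and 9.39 in 62B, 10.05 in 62C, and 8.67 and 8.63 in the reference. All evolved arrays stood above the reference, with log2 changes of 0.94 ± 0.06 in 62A, 0.69 ± 0.05 in 62B and 1.40 ± 0.06 in 62C (limma adjusted p at most 1.60e-05). GUT2, the mitochondrial glycerol phosphate dehydrogenase, rose likewise (0.89 ± 0.07, 0.76 ± 0.06 and 1.26 ± 0.07). Set against the reference as a class, GUT2 passed (limma adjusted p = 0.0419) and ALD4 did not (limma adjusted p = 0.0564). PUT4, a proline permease and so not an enzyme of carbon use, rose in 62A (1.16 ± 0.08) and 62C (1.21 ± 0.08) and had a log2 change of 0.010 in 62B.

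Some of the best known targets of these activators, named after their values were seen, did not pass in any strain. ADH2, the ethanol-oxidising alcohol dehydrogenase, had log2 changes of 0.047 in 62A, 0.00020 in 62B and −0.059 in 62C. ACS1, an acetyl-CoA synthetase, had changes of 0.026, 0.046 and 0.028. SIP4, an activator that Cat8 itself controls, had 0.013, 0.0042 and 0.044. The acetate transporter gene ADY2 had 0.044, 0.035 and −0.032. Other genes of the list moved further, with ATO3 at −0.61, −0.56 and −0.81 and ATO2 at 0.21, 0.24 and 0.37. ADH2, SIP4 and ADY2 had mean log2 values of 5.34, 5.40 and 5.16, against a background of 5.07, so like 7 of the 10 genes they lay under 1 log2 unit above it.

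**Figure D3:**
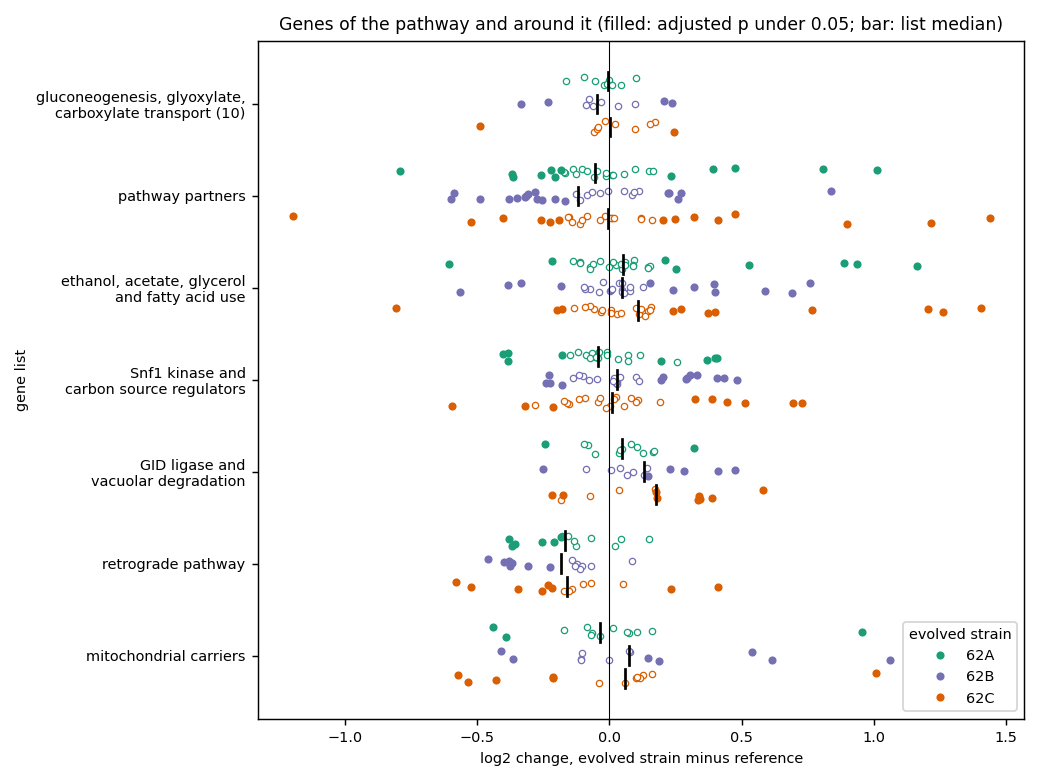
Log2 change (x axis) of single genes in 62A, 62B and 62C minus the reference, for the 10 genes described here (top row) and 6 related gene lists (rows below). Each point is a gene, filled where the limma adjusted p was under 0.05, and black bars are list medians. The 10 genes lie between −0.49 and 0.24, while single genes of the lists reach −1.20 and 1.44.

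Among 26 regulators of carbon source use, those higher numbered 4 in 62A, 9 in 62B and 6 in 62C, and those lower 4, 4 and 3 (median log2 changes −0.044, 0.028 and 0.0095). MIG2, a repressor of glucose-repressed genes related to Mig1, had log2 values of 6.20 in 62A, 6.85 and 6.94 in 62B, 6.01 in 62C, and 6.55 and 6.65 in the reference. It lay above the reference in 62B and below it in the other evolved strains. MIG2 rose in 62B (log2 change 0.29 ± 0.05) and fell in 62A (−0.40 ± 0.07) and 62C (−0.59 ± 0.07), with limma adjusted p of 0.00253, 0.00290 and 0.000164.

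The catalytic subunit gene TPK2 of protein kinase A, a kinase active on glucose, rose in 62A, 62B and 62C (log2 changes 0.37 ± 0.06, 0.43 ± 0.05 and 0.69 ± 0.06). BCY1, its inhibitory subunit, rose in 62B (0.41 ± 0.05) and 62C (0.45 ± 0.07). For SNF1 itself, named after its values were seen, the log2 changes of 0.071, 0.099 and 0.19 did not pass (limma adjusted p = 0.487, 0.193 and 0.0535). MIG1, encoding the repressor itself and also named afterwards, fell in 62B (−0.24, limma adjusted p = 0.00307), with changes of −0.044 in 62A and 0.025 in 62C. HAP4, the activator subunit for respiratory genes, also named afterwards, rose in 62A, 62B and 62C (0.40, 0.20 and 0.73). For the evolved strains as a class, neither TPK2 nor HAP4 passed (limma adjusted p = 0.0595 and 0.153).

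The GID ubiquitin ligase marks Fbp1, Pck1, Icl1 and Mdh2 for destruction when glucose returns, and some Fbp1 is degraded in the vacuole. Of 13 measured genes of these routes, those higher numbered 1 in 62A, 5 in 62B and 7 in 62C, and those lower 1, 1 and 2, with median log2 changes of 0.049, 0.13 and 0.18. UBC8, the ubiquitin-conjugating enzyme that works with GID, rose in 62B (log2 change 0.47 ± 0.05) and 62C (0.34 ± 0.06). VID30, a GID subunit, rose in the same strains (0.41 ± 0.05 and 0.39 ± 0.07). Neither passed in 62A (0.13 and 0.17). PEP4, a vacuolar protease of general use, rose in all 3 (0.32 ± 0.06, 0.28 ± 0.05 and 0.58 ± 0.06), but did not pass for the class (limma adjusted p = 0.0811). VID24, named after its values were seen, went the other way and was the gene counted lower in 62A and in 62B. Its log2 changes were −0.24 in 62A, −0.25 in 62B and −0.18 in 62C. These arrays measure RNA only, so the amounts of the enzymes themselves are not known.

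The retrograde pathway list, which CIT2 stands for in most assays, held 14 measured genes. Those higher numbered 0 in 62A, 0 in 62B and 2 in 62C, and those lower 6, 7 and 6, with median log2 changes of −0.17, −0.18 and −0.16. Of all tested genes, 14.9%, 21.3% and 23.3% were lower. The list mixes target genes with regulators that act for or against the pathway. These counts and medians therefore give no direction of its activity. PYC1, a pyruvate carboxylase, fell in 62A, 62B and 62C (log2 changes −0.37 ± 0.06, −0.31 ± 0.05 and −0.52 ± 0.06). IDH2, a subunit of the mitochondrial isocitrate dehydrogenase, fell in 62A (−0.21 ± 0.06) and 62B (−0.46 ± 0.05). BMH1, a 14-3-3 protein that holds back the pathway, fell in 62B (−0.40 ± 0.05). DLD3, a cytosolic lactate dehydrogenase and, like CIT2, a common marker of the pathway, was named after its values were seen. It fell in all 3 strains (−0.38, −0.38 and −0.58), while CIT2 passed in 62C alone. For the class of 3 strains, neither PYC1 nor DLD3 passed (limma adjusted p = 0.0510 and 0.0561).

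Mitochondrial carriers completed the lists, with 13 measured genes. Those higher numbered 1 in 62A, 5 in 62B and 1 in 62C, and those lower 2, 2 and 5 (median log2 changes −0.035, 0.072 and 0.059). MPC3, a subunit of the mitochondrial pyruvate carrier made during respiratory growth, had log2 values of 8.30 in 62A, 8.37 and 8.45 in 62B, 8.35 in 62C, and 7.34 and 7.35 in the reference. The evolved arrays were close together and well above the reference, with log2 changes of 0.95 ± 0.06 in 62A, 1.06 ± 0.05 in 62B and 1.01 ± 0.06 in 62C (limma adjusted p at most 8.98e-06). ODC1, an oxodicarboxylate carrier, rose in 62B (0.62 ± 0.06), and its paralog ODC2 fell in 62A, 62B and 62C (−0.44 ± 0.06, −0.37 ± 0.05 and −0.57 ± 0.06). Both MPC3 and ODC2 passed for the evolved strains as a class (limma adjusted p = 0.00923 and 0.0419). Beside these, SFC1 did not pass in any strain.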

How the data were processed

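The deposited table holds log2 expression values per probe set. The submitters' processing notes name RMA and affy as the authors' tools, without versions; the genome build is not known here, so no coordinates are printed. No value was rescaled, and 0 sample columns were left unused. Of 10928 probe sets, 5498 matched 1 S. cerevisiae gene in the platform annotation, updated through gene identifiers to the RefSeq gene table (12 symbols changed). The highest-mean probe set was kept for 47 genes with several, which left 5449 tested genes. Each of the 10 genes has 1 probe set, of the kind made for 1 gene. Array number limits the precision.

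Models were fitted with lmFit and eBayes of limma 3.58.1, under R 4.3.3, over all 5449 genes, with Benjamini-Hochberg adjustment and a threshold of 0.05. One fit had a term per strain over 6 arrays (2 residual degrees of freedom), so the lone arrays (62A, 62C) borrow the spread of the pairs. Pairwise contrasts and a moderated F compared the evolved strains. The class fit set 62A, the 62B mean and 62C against 2 reference arrays (3 residual degrees of freedom). Errors given as ± are standard errors. The fits were tested on simulated data. Same-numbered arrays of 62B and the reference shared little deviation gene by gene (correlation −0.0595 over genes). That value leaves out a shift common to all genes, and whether the numbers pair arrays is not known here. The genes, the 6 lists and the tests were chosen with earlier results of these data known. From each list the 3 genes with the smallest p in a joint F over the 3 strain contrasts are named; others are said to be named after their values were seen. Normalization, centring, a filter on low values, probe set choice, the variance model, single arrays and the replicate number were varied.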

Additional observations from a re-analysis of the deposited data

Results flagged for a closer look

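In 4 genes the change against the reference differed between evolved strains, by the limma F among the 3 strains. The widest differences were 0.33 for PCK1 (62A minus 62B), −0.24 for MLS1 (62A minus 62B), 0.41 for CIT2 (62B minus 62C) and −0.28 for CAT8 (62B minus 62C), all on the log2 scale. Each involves 62B, the strain with 2 arrays and so the smallest error among the evolved strains.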

How the results depend on the processing

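PCK1 in 62B and CIT2 and CAT8 in 62C passed in the same direction under all 11 alternatives of the strain fit. The number of genes that rose in 62C was 2 after quantile normalization and with robust variance, and 3 after median centring and with a mean-variance trend, through MDH2 and ADR1. With a single array left out, the genes that fell in 62A numbered 0 to 1, those that rose in 62B 0 to 2, those that fell in 62B 1 to 3, those that rose in 62C 1 to 2, and those that differed among strains 1 to 7. The low ends came without a 62B array and the high ends without a reference array. In these fits the spread came from the pair left whole. Whether the replicate number pairs arrays is not known here. With the replicate block the counts per strain were as reported, and 4 genes differed among strains, with ADR1 in place of MLS1. That count was 5 after the filter on low values and 6 after median centring, with a mean-variance trend and with robust variance. For the class the block was fitted with evolved arrays as separate samples, and 0 of the 10 genes passed there and under the other class alternatives, although the class fit called 259 of all genes, 6 without 62A, 99 without 62C and 0 without either reference array. The changes that turned sign were all small and uncalled. On median centring they were PCK1 in 62A (0.015) and 62C (0.0069), MLS1 in 62A (0.016) and JEN1 in 62A (0.0088), on quantile normalization CAT8 in 62B (0.0062), and with the replicate block PCK1 in 62A (0.041) and 62C (0.025), MLS1 in 62A (0.024) and JEN1 in 62C (−0.0082). With an array left out, the ranges were −0.10 to 0.056 for FBP1 in 62A, −0.14 to 0.019 for FBP1 in 62C, −0.039 to 0.034 for PCK1 in 62A, −0.055 to 0.019 for PCK1 in 62C, −0.0055 to 0.069 for SFC1 in 62B, −0.100 to 0.082 for JEN1 in 62A, −0.068 to 0.11 for JEN1 in 62C, −0.076 to 0.012 for CAT8 in 62B and −0.015 to 0.031 for ADR1 in 62A. The cause of these shifts was not tested. Signal over background limits what FBP1 and SFC1 can show.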
